A study of Mus musculus with 27 samples.

Results

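The 9 genes Fga, Fgb, Fgg, Plat, Plau, Plaur, F3, Thbd and Thbs1 encode the 3 chains of fibrinogen, both plasminogen activators and the receptor of one of them, tissue factor, thrombomodulin and thrombospondin 1. They were taken from the table by symbol, with no threshold on measured values, and all 9 were found among the 19392 genes listed by symbol. The list was chosen with earlier results of these data known, so shares of all genes are given below for scale and not as a test. RNA-Seq was done on the left kidneys of 27 C57BL/6 mice, 3 for each of 9 ischemia times. The left renal pedicle was clamped for 0 min (the sham group, labelled control), 16, 18, 20, 22, 24, 26, 28 or 30 min. The paper describes an operation on a warm plate in which the right kidney was excised, and the mice were sampled after 24 h. It lists 0 min among the ischemia times of that model and describes no separate sham procedure. Whether the sham mice also lost the right kidney is not stated outright. The age of the mice is not given in the sources used here. The authors deposited FPKM, in which the fragments of a gene are divided by its transcript length and by the size of the library, so levels of different genes can be set side by side per unit of length.

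Fibrinogen is a soluble protein of the plasma, built from pairs of an alpha, a beta and a gamma chain, and most of it is made by hepatocytes. Tissue factor starts clotting at the cell surface, thrombin then turns fibrinogen into fibrin, and thrombomodulin on endothelium binds thrombin and redirects it to activate the anticoagulant protein C. Fibrin is dissolved by plasmin, which tissue-type and urokinase-type plasminogen activator cut from plasminogen, and thrombospondin 1 is a matrix protein that is also stored in platelets.

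Of the 9 genes, 8 were differentially expressed genes (DEGs, limits below) with a higher level after 30 min of ischemia than in sham kidneys. After 28 min 7 were higher DEGs, and Thbs1 was higher by less than the fold limit. Fgb and Plaur had the greatest change of the 9 genes, with a mean FPKM at 28 min that was 20.9-fold and 15.7-fold that of sham. Plau, the most abundant of the 9 genes in sham kidneys, was the exception and rose at no ischemia time. From 16 to 24 min Plaur was the only DEG of the 9, and Thbd was higher at 4 of these 5 times by less than the fold limit.

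The test was limma with empirical Bayes on quantile normalized log2(FPKM + 1), over 18188 genes above 0 FPKM in at least 3 kidneys, with 1 mean per ischemia time and Benjamini-Hochberg adjusted p-values. All 9 genes were above 0 FPKM in every kidney. DEGs had to pass 2 limits, a log2 fold change beyond 1 in either direction and an adjusted p-value under 0.05. Log2 fold changes are on the log2(FPKM + 1) scale, which understates the change of genes with low values. All comparisons with 0 min share the same 3 sham kidneys. Against 0 min, 1 of the 9 genes was a higher DEG at 16 min, where 1.28% of all tested genes were. The count was also 1 at 18 min (1.97% of all genes), 20 min (1.55%), 22 min (2.09%) and 24 min (1.97%). It rose to 2 of 9 at 26 min, against 2.16% of all genes, 7 of 9 at 28 min, against 4.27%, and 8 of 9 at 30 min, against 5.14%. No gene of the 9 was a lower DEG at any time, and few of all tested genes were. The lower DEGs were 4.21% of all tested genes at 28 min and 5.59% at 30 min. From 16 to 26 min they were between 175 (20 min) and 293 (26 min) of the 18188 genes. The median log2 fold change of the 9 genes was 1.55 at 28 min and 2.05 at 30 min, while that of all tested genes was 0 and 8e-04.

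**Figure D1:**
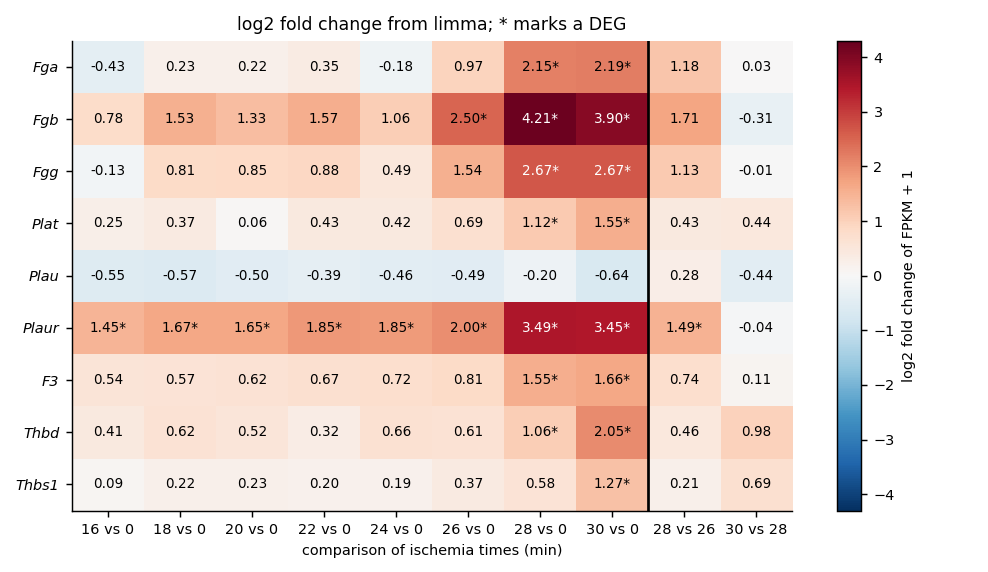
Log2 fold change of FPKM + 1 from limma for the 9 genes (rows) in each comparison of ischemia times (columns), in color from blue (lower) to red (higher), with an asterisk on DEGs. The last 2 columns compare 28 with 26 min and 30 with 28 min. The asterisks are in the Plaur row up to 24 min and reach 7 and 8 rows at 28 and 30 min.

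The kidneys of a group were unequal, and single kidneys stood apart over several of the genes. Sham replicate 3 had the highest level of its group in 8 of the 9 genes. Replicate 3 of 16 min had the lowest level of its group in 7 genes, and replicate 1 of 24 min had the highest in all 9. At 30 min, replicate 3 was lowest in 5 genes, the fibrinogen chains among them, and highest in the other 4. Other kidneys had like counts, such as 22 min replicate 3, highest in 8, and 20 min replicate 3 and 22 min replicate 2, lowest in 7. Several of the 9 genes moved together, and such ranks were not counted over all genes, so these counts are descriptions only. The coefficient of variation within a group, averaged over the 9 times, was between 45.2% and 51.1% for the fibrinogen chains and 12.8% for Thbd.

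**Figure D2:**
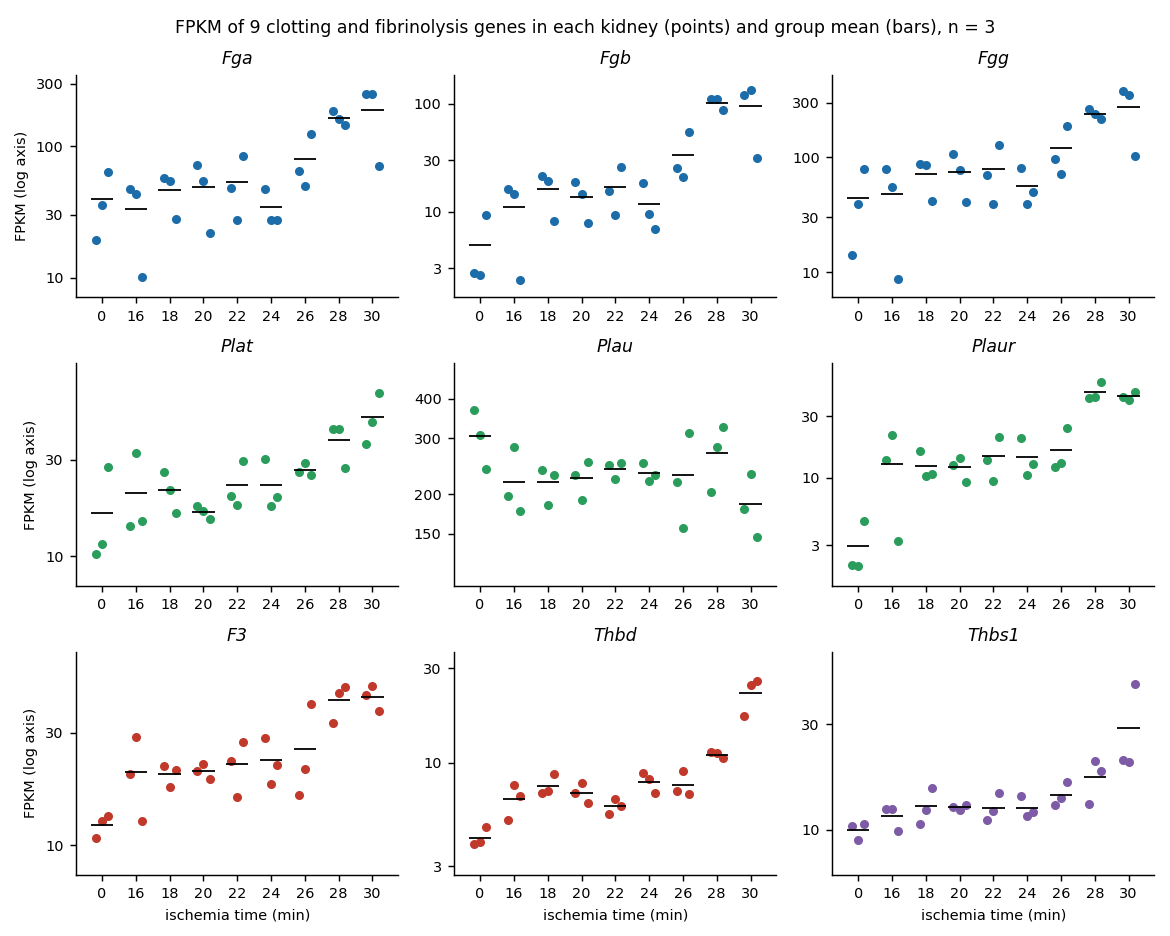
FPKM (log axis) of each of the 9 genes in every kidney (points, 3 per ischemia time, replicates 1 to 3 from left to right) and the group mean (bars) against ischemia time in min. Plaur was higher at 28 than at 26 min, the kidneys of 28 and 30 min lay above sham for Fga, Fgb, Fgg, Plaur, F3, Thbd and Thbs1, and Plau had its highest mean in sham kidneys. The share of all genes that lay above sham in this way at 28 and 30 min is not given here.

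The 3 fibrinogen genes lie side by side on mouse chromosome 3. In GENCODE on GRCm38, Fgg spans chr3:83007724-83015049 on the plus strand, Fga spans chr3:83026076-83033627 on the plus strand, and Fgb spans chr3:83040141-83049863 on the minus strand, so that the cluster covers 42.1 kb. The 250 bases before each start, from RefSeq on GRCm38.p6, are shown because the 3 genes are made into 1 protein and moved together in these kidneys. They run 5′ to 3′ on the gene's own strand, at chr3:83025903-83026152 (plus) for Fga, chr3:83049864-83050113 (minus) for Fgb and chr3:83007474-83007723 (plus) for Fgg. For Fga the RefSeq start lies downstream of the GENCODE start, so the end of its window lies within the GENCODE gene. Both strands were searched for the STAT3 core CTGGGA, the HNF1 half-site GTTAAT, the AP-1 site TGANTCA and the SP1 site GGGCGG, and capitals mark the matches, which do not overlap one another here.
Fga: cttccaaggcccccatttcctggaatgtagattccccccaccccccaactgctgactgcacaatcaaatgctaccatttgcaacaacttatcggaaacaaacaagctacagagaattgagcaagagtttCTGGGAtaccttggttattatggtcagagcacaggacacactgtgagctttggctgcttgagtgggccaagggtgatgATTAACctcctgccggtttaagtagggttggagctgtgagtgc
Fgb: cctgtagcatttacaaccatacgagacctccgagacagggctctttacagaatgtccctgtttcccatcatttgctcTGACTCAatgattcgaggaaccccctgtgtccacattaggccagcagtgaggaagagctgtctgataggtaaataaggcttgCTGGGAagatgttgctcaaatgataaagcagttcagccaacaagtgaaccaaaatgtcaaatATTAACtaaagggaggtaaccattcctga
Fgg: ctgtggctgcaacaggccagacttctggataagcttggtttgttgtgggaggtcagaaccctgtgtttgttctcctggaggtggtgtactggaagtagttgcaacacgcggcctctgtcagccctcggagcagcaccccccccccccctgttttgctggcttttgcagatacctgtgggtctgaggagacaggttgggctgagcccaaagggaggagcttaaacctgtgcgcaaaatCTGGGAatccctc
CTGGGA, the core of the element that STAT3 binds in acute-phase genes such as these, was in all 3 windows, between 121 and 116 bases before the start in Fga, 91 and 86 in Fgb and 13 and 8 in Fgg. It was in 26.8% of 27025 RefSeq promoters of the same length. GTTAAT, from the site of the liver factor HNF1, was found on the other strand in Fga, 43 to 38 bases before the start, and in Fgb, 29 to 24 bases before it, and in 6.52% of all promoters. The match in Fga is upstream of the RefSeq start only, since it lies within the GENCODE gene. TGANTCA was in the Fgb window and in 6.87% of all promoters. These matches are letters in a window and no measurement of binding.

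Fga, the alpha chain, measured 19.3, 36.0 and 63.9 FPKM in the 3 sham kidneys, 186, 160 and 146 FPKM at 28 min, and 251, 248 and 70.7 FPKM at 30 min. Both later groups lay wholly above sham, although the lowest kidney at 30 min exceeded the highest sham kidney by little. The log2 fold change against 0 min was 2.15 at 28 min (SE 0.61, adjusted p = 0.00586, limma) and 2.19 at 30 min (adjusted p = 0.00466). In a fit of those 2 groups alone, the change at 30 min was 2.18 with an adjusted p of 0.0512 and was no longer called. From 16 to 24 min the log2 fold change of Fga lay between -0.43 and 0.35 and none passed the test.

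Fgb, the beta chain, was the scarcest chain in sham kidneys. Its 3 sham kidneys held 2.73, 2.61 and 9.41 FPKM, those of 26 min 25.2, 20.9 and 55.1, those of 28 min 110, 111 and 87.5, and those of 30 min 122, 133 and 31.5. The sham group overlapped with none of these 3 groups, and at 30 min replicate 3 fell within the range of the 26 min kidneys. Fgb was a DEG against 0 min at 26 min, with a log2 fold change of 2.50 (adjusted p = 0.00564), at 28 min (4.21, SE 0.64, adjusted p = 1.84e-05) and at 30 min (3.90, adjusted p = 3.22e-05). At 18 and 22 min its log2 fold changes of 1.53 and 1.57 did not pass (adjusted p = 0.0819 and 0.0718, limma), and both were called when sham replicate 3 was left out, at 2.01 and 2.06 (limma).

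Fgg, the gamma chain, gave 14.3, 39.0 and 80.1 FPKM in sham kidneys, 264, 241 and 215 at 28 min, and 377, 350 and 102 at 30 min. The sham kidneys differed among themselves more than the 28 min kidneys did, and the groups did not overlap. The log2 fold change was 2.67 at both times (SE 0.70, adjusted p = 0.00352 at 28 min and 0.00314 at 30 min). At 26 min it was 1.54 and did not pass (adjusted p = 0.106, limma), and without sham replicate 3 it was 2.09 and was called.

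Within a kidney the 3 chains were not in a fixed ratio. These ratios were chosen after the values were seen. The ratio of Fgb to Fga was 0.121 ± 0.0417 (SD, n = 3) in sham kidneys, between 0.297 and 0.338 in the group means of 16 to 24 min, and 0.418 ± 0.0289 at 26 min. It was highest at 28 min, with 0.626 ± 0.0556, and 0.489 ± 0.0462 at 30 min. The highest sham kidney had 0.147, below all 24 kidneys with ischemia, the lowest of which had 0.229. The ratio of Fgg to Fga was 1.03 ± 0.261 in sham kidneys and 1.47 ± 0.0445 at 28 min, and it was 1.45 ± 0.0466 at 30 min, although replicate 3 of that group had the lowest levels of all 3 chains. For both ratios the comparison of 28 min with 0 min gave p = 0.1 by an exact permutation test, two-sided, the smallest that 3 kidneys against 3 can give.

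**Figure D3:**
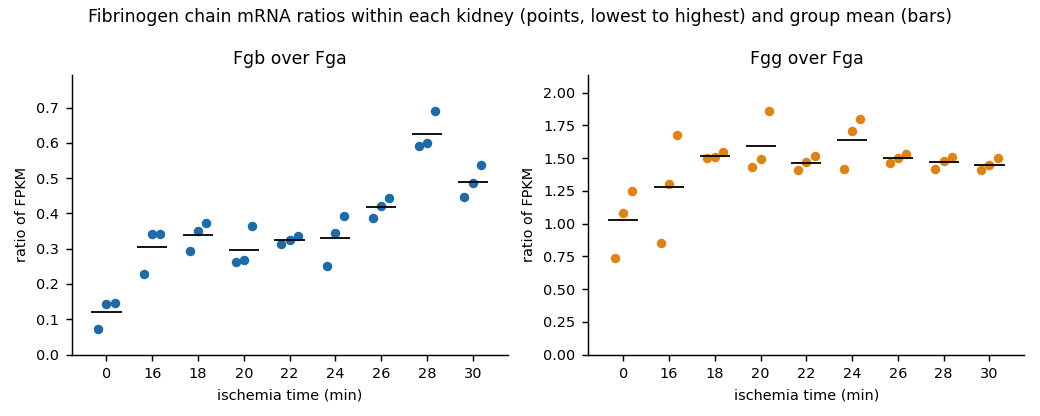
Ratio of FPKM of Fgb to Fga (left) and of Fgg to Fga (right) in each kidney (points, ordered from lowest to highest within a group) and group mean (bars) against ischemia time in min, on axes that start at 0. The mean ratio of Fgb to Fga was 0.121 in sham kidneys and 0.626 at 28 min.

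Hepatocyte markers were set beside the fibrinogen chains, since the liver is their main source. The summed FPKM of 8 hepatocyte markers ran from 205 to 257 in sham kidneys, from 61.2 to 76.3 at 28 min and from 52.9 to 68.8 at 30 min. Most of this sum was Serpina1a and Ttr, and the markers did not move one way. Of the 7 tested, 0 were higher and 3 (Apob, Ttr and Serpina1a) were lower DEGs at 28 min, and 2 (Apob and Serpina1a) were lower at 30 min. Alb, albumin, the defining product of hepatocytes, measured 1.62 to 2.65 FPKM in sham kidneys, 4.02 to 5.2 at 28 min and 2.83 to 5.77 at 30 min, above sham in every kidney of both groups. Its log2 fold changes were 0.63 (adjusted p = 0.0298) and 0.47 (adjusted p = 0.0948, limma). Fabp1 was also higher in the 28 min kidneys, at 1.54 to 3.40 FPKM against 0.52 to 1.45 in sham (log2 fold change 0.68, adjusted p = 0.236, limma). At 30 min its range of 1.2 to 4.92 FPKM overlapped with sham. Apoa1 was lower, at 0.91 to 1.74 FPKM in sham kidneys, 0.06 to 0.47 at 28 min and 0.38 to 0.47 at 30 min. Apoa2 measured 5.14 to 7.70, 3.85 to 5.48 and 2.98 to 3.85 FPKM in these groups. The median log2 fold change of the 7 tested markers was -0.9972 at 28 min and -0.8742 at 30 min. Ahsg, which encodes a liver plasma protein, was at 0 FPKM in 25 of 27 kidneys and reached 0.05 FPKM at most. The part of hepatocyte RNA in the fibrinogen values was not tested.

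The plasminogen activators differed in level and in direction. Plau, urokinase, measured 369, 308 and 240 FPKM in sham kidneys, 204, 282 and 324 at 28 min and 180, 231 and 147 at 30 min. The 30 min kidneys lay below all sham kidneys, whereas those of 28 min overlapped with them. The log2 fold change was -0.205 at 28 min (SE 0.23, 95% interval from -0.69 to 0.28, adjusted p = 0.503, limma) and -0.64 at 30 min (95% interval from -1.12 to -0.16, adjusted p = 0.0240), a change under the fold limit of a DEG. At 30 min, 25.4% of all tested genes were lower with an adjusted p under 0.05. At the other times the log2 fold change of Plau was between -0.57 and -0.39 and none passed.

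Plat, tissue-type plasminogen activator, held 10.2, 11.6 and 27.6 FPKM in sham kidneys, 42.6, 42.4 and 27.3 at 28 min and 36.0, 46.2 and 64.2 at 30 min. The lowest kidney of 28 min was just below the highest sham kidney, and the 30 min group did not overlap with sham. Plat was a DEG at 28 min, with a log2 fold change of 1.12 (SE 0.33, adjusted p = 0.00878), and at 30 min, with 1.55 (adjusted p = 0.000536). The call at 28 min was lost without sham replicate 1 (0.87), without sham replicate 2 (0.96) and in a fit of the 2 groups alone (1.12, adjusted p = 0.0768). At 26 min Plat was called only with sham replicate 3 left out, where its log2 fold change was 1.09 in place of 0.69. The ratio of Plau to Plat within a kidney was 23.8 ± 13.9 (SD, n = 3) in sham kidneys, 7.76 ± 3.67 at 28 min and 4.10 ± 1.56 at 30 min. At 28 min the range of 4.79 to 11.9 overlapped with sham (p = 0.2, exact permutation test). At 30 min the range of 2.30 to 5.0 lay below the lowest sham kidney, at 8.70 (p = 0.1, exact permutation test).

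Plaur encodes the receptor that holds urokinase at the cell surface. It gave 2.11, 2.09 and 4.64 FPKM in sham kidneys, 13.7, 21.5 and 3.27 at 16 min, 41.8, 42.3 and 54.9 at 28 min and 42.0, 39.7 and 46.5 at 30 min. Replicate 3 of 16 min was within the sham range, and the kidneys from 18 min on were all above it. Plaur was a DEG at all 8 ischemia times, with log2 fold changes between 1.45 and 2 from 16 to 26 min, 3.49 at 28 min (SE 0.43, adjusted p = 1.5e-06) and 3.45 at 30 min (adjusted p = 1.09e-06). The call at 16 min (adjusted p = 0.0227, limma) was lost without sham replicate 1 or 2, without 16 min replicate 1 or 2, and in a fit of those 2 groups (adjusted p = 0.285), while those at 18 min and later held under the alternatives tried.

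F3, tissue factor, lies at chr3:121723537-121735048 on GRCm38. It measured 10.7, 12.6 and 13.3 FPKM in sham kidneys, 32.9, 44.4 and 46.8 at 28 min and 43.7, 47.2 and 37.1 at 30 min. Neither later group overlapped with sham, and the 16 min group did through its replicate 3, at 12.7 FPKM. The log2 fold change was 1.55 at 28 min (SE 0.27, adjusted p = 8.18e-05) and 1.66 at 30 min (adjusted p = 2.88e-05). At 26 min F3 was higher by 0.81 (adjusted p = 0.0273), below the fold limit of a DEG, where 14.9% of all genes were higher with an adjusted p under 0.05. Without 26 min replicate 1 it was 1.08 (adjusted p = 0.00734, limma) and was called. In the RefSeq window of 250 bases before its start, TGANTCA was found at 2 places in F3 and at 1 in Plaur, and GGGCGG, present in 32.9% of all promoters, was found 3 times in each, with overlaps in Plaur. Windows were at hand for 5 of the 9 genes.

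Thbd, thrombomodulin, had the lowest spread within groups. Its sham kidneys held 3.89, 3.97 and 4.71 FPKM, those of 28 min 11.3, 11.2 and 10.5, and those of 30 min 17.2, 24.7 and 25.9. The 3 groups were separate from one another, and none of the 18 kidneys of 16 to 26 min, at 5.15 to 9.07 FPKM, reached either the sham range or that of 28 min. Thbd was a DEG at 28 min, with a log2 fold change of 1.06 (SE 0.14, adjusted p = 4.31e-06), and at 30 min, with 2.05 (adjusted p = 6.21e-10). At 16, 18, 20, 24 and 26 min it was higher by 0.41 to 0.66 with adjusted p-values of 0.00181 to 0.0486 in limma, below the fold limit, and at 22 min it was 0.32 higher (adjusted p = 0.104, limma).

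Thbs1, thrombospondin 1, measured 10.3, 8.93 and 10.6 FPKM in sham kidneys, 13.1, 20.6 and 18.4 at 28 min and 20.7, 20.4 and 45.6 at 30 min. The groups did not overlap with sham, and replicate 3 of 30 min stood far above the other two. At 28 min the log2 fold change of 0.58 (SE 0.23, adjusted p = 0.0396) was under the fold limit, and at 30 min Thbs1 was a DEG with 1.27 (adjusted p = 8.34e-05). Without 30 min replicate 3 the change was 0.87, below the fold limit, with the adjusted p-value still under 0.05. Its kidneys lay above all sham kidneys at every time from 18 min on, with log2 fold changes of 0.19 to 0.37 up to 26 min that did not pass the test. At 26 min, 5 of the 9 genes did not overlap with sham on the higher side, and 29.1% of all tested genes did not. The share of all genes at 28 and 30 min is not given here, so the separate groups at those times are descriptions of single genes.

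The order of the group means shows where neighbouring levels were separate. For Plaur the kidneys of sham were separate from the next group in the order (20 min), and those of 26 min from the next (30 min), while the groups from 16 to 26 min overlapped with their neighbours. Thbd had 3 such gaps among 8 neighbouring pairs, above sham, between 24 and 28 min, and between 28 and 30 min. Fga and Fgg had 1, between 26 and 28 min, and F3 had 1, between sham and the next group in the order (18 min). For Plaur and F3 the 16 min group still overlapped with sham. Fgb, Plat, Plau and Thbs1 had none. Only neighbours in the order were compared, so the separate groups of 26 and 28 min for Fgb are not counted. How often all genes had such gaps was not counted, and the numbers of gaps are descriptions only.

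Within the range of 16 to 26 min, no pair of neighbours in the order of the group means was separate for any of the 9 genes. Groups at successive times could still be separate, as for Thbd at 22 min (5.52 to 6.54 FPKM) and 24 min (7.01 to 8.84). Plat was another case, at 20 min (15.3 to 17.82 FPKM) and 22 min (17.92 to 29.54). In this range the slope of the group means on ischemia time was also tested. It passed for 0 of the 9 genes and for 0.011% of all tested genes (limma), and 0 of the 9 had an unadjusted p-value under 0.05, as did 8.32% of all genes. The steepest were Fgb and Fgg, both at 0.11 per min on the log2 scale (Fgb, SE 0.054, adjusted p = 0.627).

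Against 26 min, 1 of the 9 genes was a higher DEG at 28 min, as were 0.44% of all genes. Plaur was that gene, with a log2 fold change of 1.49 (SE 0.43, adjusted p = 0.0188), and its call was lost without 26 min replicate 1 (1.31), 26 min replicate 2 (1.37) or 28 min replicate 3 (1.36). Fgb differed by 1.71 (95% interval from 0.37 to 3.04, adjusted p = 0.0684, limma), Fga by 1.18 (adjusted p = 0.193, limma) and Fgg by 1.13 (adjusted p = 0.299, limma). None of the 3 chains passed, although their 28 min kidneys lay above those of 26 min. The share of all genes that lay above 26 min in this way is not given here, so the separation is a description only. Fgb passed at 28 against 26 min when genes under 1 FPKM were left out (adjusted p = 0.0458), in a fit of the 2 groups (adjusted p = 0.0407) and without 26 min replicate 3 (log2 fold change 2.12). Without that kidney F3 passed too, with 1.09 in place of 0.74. Thbd was higher by 0.46 (adjusted p = 0.0290), below the fold limit.

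Between 28 and 30 min, 0 of the 9 genes were DEGs in limma, against 1.05% of all genes in either direction, and 2 of the 9 had an unadjusted p-value under 0.05, as did 26.8% of all genes. Thbd was one of them, from a mean of 11 to 22.6 FPKM, with a log2 fold change of 0.98 (SE 0.14, adjusted p = 0.000361) that lay just under the fold limit. It passed the limit with a pseudocount of 0.1 FPKM (1.04) and without 28 min replicate 1 (1.01) or 30 min replicate 1 (1.17). Thbs1 was the other, at 0.69 (95% interval from 0.21 to 1.16, adjusted p = 0.0505, limma). Plaur differed by -0.04 (95% interval from -0.93 to 0.85), F3 by 0.11 (from -0.45 to 0.67) and Fga by 0.03 (from -1.23 to 1.30), so that for Fga a change of more than 2-fold either way lay within the interval.

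The genes whose pattern was most like that of each member were found by Pearson correlation of quantile normalized log2(FPKM + 1) over the 27 kidneys, among 12345 genes with a mean of at least 1 FPKM. These values are descriptions over kidneys that share ischemia groups, and the names depend on the measure, since with Spearman correlation F3 and Thbs1 shared none of the 3 genes given here. For Fga these were Fgg (0.98), Acat3 (0.96) and Fgb (0.95), and for Fgg they were Fga (0.98), Fgb (0.95) and Acat3 (0.94). For Fgb they were Nek6 (0.97), Acat3 (0.96) and Fgg (0.95). The gene nearest to Plaur was Tnfrsf12a, the receptor of the cytokine TWEAK (0.99), followed by Chrnb1 and Anxa2 (both 0.98). F3 was nearest to Ptp4a1 (0.96), Rbpms and Runx1 (both 0.95), Plat to Nfkb1 (0.91), 1700025G04Rik and Myl12a (both 0.89), and Thbs1 to Tcf25, Cap1 (both 0.92) and Actn4 (0.91). Thbd was nearest to Itga5, a subunit of the fibronectin receptor, Btg3 and Emp2 (all 0.95). Plau had no gene as near, with Kifc3 at 0.72, Lpar6 at 0.70 and Pcgf5 at 0.69.

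Of 48 other genes of clotting and fibrinolysis, 47 were tested, and the direction was mixed. At 28 min 7 were higher and 4 lower DEGs against 0 min, where 4.27% and 4.21% of all genes were, and at 30 min 9 were higher and 6 lower, against 5.14% and 5.59%, with a median log2 fold change over the 47 genes of -0.0126 and -0.0024. At 16 min 2 were higher, namely Anxa2 and Fn1, and 0 were lower. Both calls were lost in a fit of those 2 groups, in which 8 of all tested genes were DEGs in place of 410. Anxa2 and Procr were also higher DEGs at 28 against 26 min (1.26 and 1.14 on the log2 scale), and Serpinf2 and Proz were lower ones (-1.04 and -1.09), where 0.44% and 1.06% of all genes were. Of these, Anxa2 and Proz lost the call without 26 min replicate 2 (1.12 and -0.88), and Serpinf2 did so without 26 min replicate 2 (-0.96) or 28 min replicate 1 (-0.92).

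Among 9 genes of fibrinolysis, 2 were higher and 1 lower at both 28 and 30 min. Serpinf2, which encodes alpha-2-antiplasmin, the inhibitor of plasmin, was the lower one. It measured 136, 132 and 114 FPKM in sham kidneys, 41.6, 50.1 and 57.0 at 28 min and 18.8, 13 and 9.18 at 30 min. The groups were separate, with log2 fold changes of -1.37 at 28 min (adjusted p = 1.69e-06) and -3.19 at 30 min (adjusted p = 4.02e-11), and it fell by 1.82 from 28 to 30 min (adjusted p = 1.82e-05). Anxa2 and S100a10, whose proteins form a complex that holds plasminogen and tissue-type activator on cell surfaces, rose by 3.26 and 1.92 at 28 min and by 3.32 and 2.10 at 30 min. Plg, plasminogen itself, was at 0.22 FPKM or less in all 27 kidneys.

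**Figure D4:**
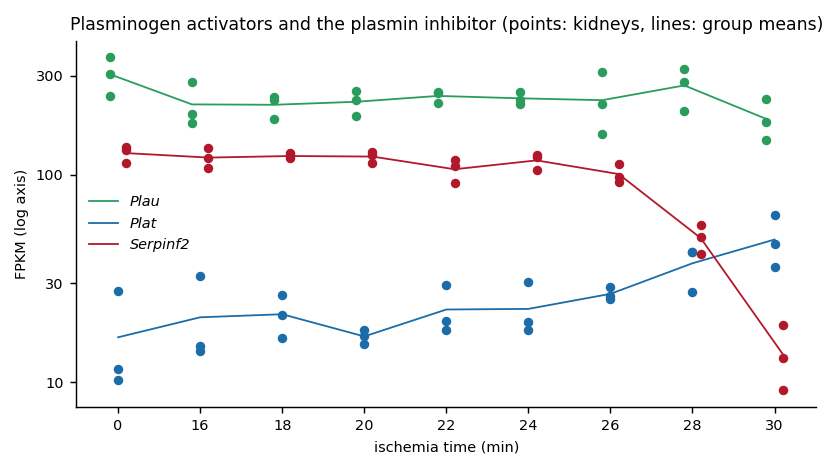
FPKM (log axis) of Plau, Plat and Serpinf2 in every kidney (points) and the group means (lines) against ischemia time in min. Serpinf2 lay at 114 to 136 FPKM in sham kidneys and at 9.18 to 18.8 FPKM at 30 min, below Plat, while Plau remained the highest of the 3.

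The anticoagulant list held 9 genes, of which 1 was higher and 1 lower at 28 min and 2 were higher and 2 lower at 30 min. Proc, protein C, had a mean of 94.5 FPKM in sham kidneys, 37.2 at 28 min and 26.6 at 30 min, with log2 fold changes of -1.38 and -1.81. Procr, the receptor that presents protein C to the complex of thrombin and thrombomodulin, rose from 0.943 to 4.47 and 7.40 FPKM, by 1.37 and 1.97 on the log2 scale. Thbd and Procr were higher and Proc lower in the same kidneys. Pros1, the cofactor protein S, rose by 1.20 at 30 min, and Proz, protein Z, fell by 1.52. The mean of Proz was above sham (2.27 FPKM) at shorter times, with 5.25 at 18 min and 3.65 at 26 min, and was 0.233 at 30 min.

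Of 13 coagulation factors tested, 2 were lower at 28 min, and 1 was higher and 2 lower at 30 min. F13b, the carrier subunit of the factor that cross-links fibrin, had a mean of 56.8 FPKM in sham kidneys. Its mean was already lower at 16 min, with 32.2 FPKM, and was 30.5 at 26 min. At 28 and 30 min it was 15.1 and 11.3 FPKM, with log2 fold changes against 0 min of -1.96 and -2.31. F13a1, the catalytic subunit of the same factor, rose from 0.0833 to 1.47 FPKM at 30 min (1.10, adjusted p = 6.52e-05), a call that was lost without 30 min replicate 3 (0.81). Kng2, a kininogen gene, fell by 1.35 and 1.07, and the call at 30 min was lost without 30 min replicate 1 (-0.90). Because Kng1 and Kng2 are near-identical, the split of reads between them is uncertain.

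Of 8 receptors of thrombin and thrombospondin, 2 were higher at 28 min, and 3 were higher and 1 lower at 30 min. F2r, the main thrombin receptor, rose by 1.08 and 1.81, and F2rl1, a related receptor cut by other proteases, by 1.35 and 1.64. Itgb3, an integrin subunit that binds fibrinogen, rose by 1.07 at 30 min, a call that was lost without 30 min replicate 2 (0.95) and when genes under 1 FPKM were left out (0.89). Cd36, a receptor of thrombospondin 1, fell by 1.68 at 30 min. Of 4 genes for fibrin cross-linking and matrix partners, Tgm1, a transglutaminase, rose by 1.61 at 28 min and was 0.08 above sham at 30 min, lower by 1.53 than at 28 min (adjusted p = 0.00594, limma), while Fn1, fibronectin, rose by 1.34 at 16 min, 1.55 at 28 min and 1.38 at 30 min. The mean of Fn1 was highest before 28 min, with 12.1 FPKM at 18 min and 11.9 at 26 min, against 8.78 at 28 min and 7.84 at 30 min. None of 4 other thrombospondin genes was a DEG at 28 or 30 min in limma, where 1 and 2 had an unadjusted p-value under 0.05, as did 53.2% and 56.7% of all genes.

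**Figure D5:**
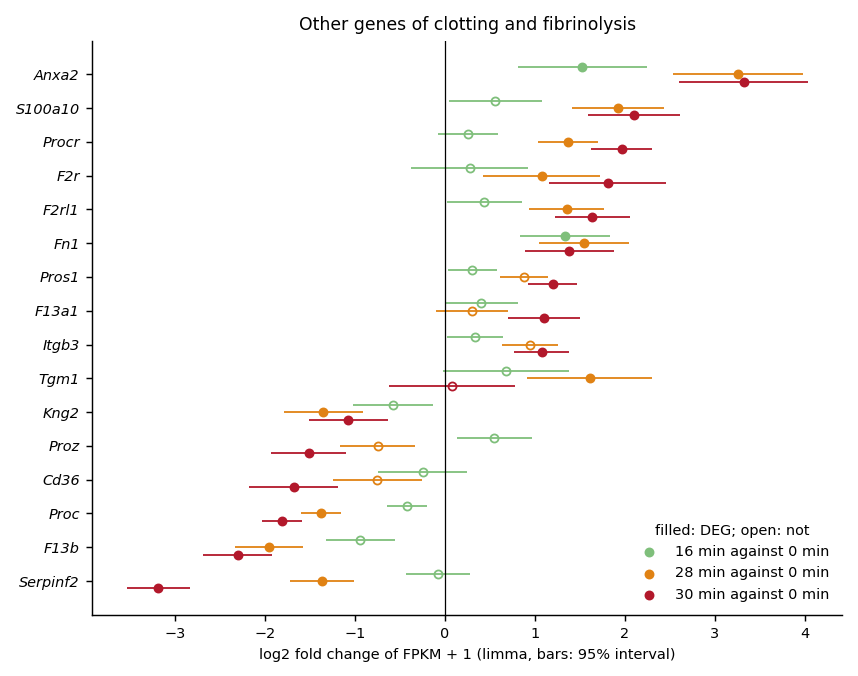
Log2 fold change of FPKM + 1 from limma (points, with 95% intervals as bars) for the 16 genes of the other clotting and fibrinolysis lists that were DEGs at 16, 28 or 30 min against 0 min or at 28 against 26 min. Filled points are DEGs. Anxa2 lies farthest to the right and Serpinf2 farthest to the left.

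Markers of the cells in the kidney moved as well, and their part in the results above was not tested. In whole tissue, fewer cells of a type and less RNA per cell cannot be told apart. The summed FPKM of 7 tubule markers was 4235 to 4746 in sham kidneys, 1547 to 1934 at 28 min and 1216 to 3279 at 30 min, with 5 of 7 lower DEGs at both times. The sum of 8 endothelial markers, the cells known for Thbd, was 103 to 123 in sham kidneys, 104 to 124 at 28 min and 133 to 223 at 30 min, and none was a DEG in limma at these times, with 1 and 5 at an unadjusted p under 0.05. The sum of 6 platelet markers was 3.32 to 4.01 FPKM in sham kidneys, 5.68 to 7.57 at 28 min and 13.6 to 21.6 at 30 min, with 2 of 6 higher at 30 min, and Gp9 and Gp5 at 0 in 5 and 6 of 27 kidneys. These markers did not move together. Pf4 measured 0.11 to 0.82 FPKM in sham kidneys and 6.81 to 11.83 at 30 min, and Ppbp 0.55 to 1.17 and 3.29 to 7.38. Itga2b was at 1.59 to 1.67 and 1.28 to 1.66 FPKM, and Gp1ba at 0.56 to 0.67 and 0.61 to 0.87. The sum of 6 neutrophil markers was 2.84 to 8.34, 11.7 to 14.9 and 16.5 to 24.5 FPKM, with 2 of 5 tested higher at 30 min, while Mpo and Elane were at 0 in 24 and 26 kidneys. All 5 red cell markers were higher at 30 min and 4 of 5 at both 18 and 22 min, with sums of 123 to 645 FPKM in sham kidneys, 690 to 1139 at 18 min, 550 to 1131 at 22 min and 796 to 1470 at 30 min, and the 2 alpha-globin genes among them are near-identical. The sum of 7 macrophage and monocyte markers was 55.9 to 65.3 FPKM in sham kidneys and 54.7 to 61.3 at 28 min, with 1 higher and 1 lower DEG. That of 5 fibroblast and mural cell markers was 39.8 to 45.5 in sham kidneys, 79.0 to 109 at 28 min and 74.7 to 248 at 30 min, with 2 higher and 1 lower DEGs at both times. The 3 podocyte markers summed to 37.4 to 52.7 FPKM in sham kidneys and 60.3 to 103 at 30 min, and 0 of 3 were DEGs in limma, with 1 at an unadjusted p under 0.05.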

How the data were processed

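The authors sequenced 27 kidneys on the DNBSEQ platform and deposited FPKM per gene symbol, on a linear scale with 2 decimals, which the paper calls RPKM. The submitters' processing notes name Bowtie2, RSEM, DESeq2 and GRCm38.p6, without roles. Quantile normalization, log2 and limma are in the study's methods, but the deposited FPKM are neither log2 values nor quantile normalized. Read counts were not used here, and of low values only 48.3% fell within 0.15 of a whole multiple of a smallest step, so the depth is unknown and the precision was judged from 3 mice per group. Summed FPKM per kidney ran from 512453 to 554036, and 225 genes were at 0 everywhere.

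The ischemia time in the labels gave the groups, and replicates are separate mice. Values were taken as log2(FPKM + 1), quantile normalized and fitted in limma 3.58.1 (R 4.3.3) with all 27 kidneys and no covariate. The fit was tested on simulated data. DEG thresholds are those of the study's methods. The members, gene lists, markers, motifs and tests were chosen with earlier results of these data known, so no p-value over a list is given. Named from the 48 other pathway genes were those that were DEGs at 16, 28 or 30 min against 0 min or at 28 against 26 min, and for each member the 3 genes of highest correlation. Positions are from GENCODE on GRCm38 and promoters from RefSeq on GRCm38.p6. Ratios of 3 kidneys against 3 were compared by exact permutation (scipy 1.17.1). Figures were drawn with matplotlib 3.10.9. The alternatives were TPM rescaling or no scaling in place of quantile normalization, a pseudocount of 0.1 FPKM, a filter of at least 1 FPKM in 3 kidneys, no filter, eBayes with a trend, a replicate block, a fit of the 2 groups compared, Spearman correlation, and leaving out each kidney. One item is not reported here.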

Additional observations from a re-analysis of the deposited data

How the results depend on the processing

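Of 1932 values of single genes under alternatives, 1869 kept their direction and side of the threshold, 23 lost a call, 13 gained one and 27 changed sign, all of the last uncalled. The number of the 9 genes called at 16 against 0 min was 0 in place of 1 in the fit of 2 groups, and 0 to 1 with a kidney left out. At 22 min it was 2 in place of 1 with TPM rescaling. For 28 against 26 min it was 2 in place of 1 with the filter of 1 FPKM and in the fit of 2 groups, and for 30 against 28 min it was 1 in place of 0 with a pseudocount of 0.1 FPKM. With a kidney left out it ran from 1 to 2 at 18 min, 1 to 2 at 22 min, 2 to 4 at 26 min, 6 to 7 at 28 min, 7 to 8 at 30 min, 0 to 3 for 28 against 26 min and 0 to 1 for 30 against 28 min. The causes were not tested. With a kidney left out, the log2 fold change against 0 min changed sign for Fga at 16 min (-0.84 to 0.24), 18 min (-0.18 to 0.63), 20 min (-0.19 to 0.70), 22 min (-0.066 to 0.75) and 24 min (-0.60 to 0.22), for Fgg at 16 min (-0.75 to 0.79) and 24 min (-0.13 to 1.04), and for Plat at 16 min (-0.11 to 0.65) and 20 min (-0.19 to 0.47). For 30 against 28 min it did so for Fga (-0.27 to 0.63), Fgb (-0.67 to 0.36), Fgg (-0.30 to 0.54), Plaur (-0.124 to 0.0842) and F3 (-0.0472 to 0.203), and for Fgg also with TPM rescaling (0.0077) and in the fit of 2 groups (0.059). The slope of Plau over 16 to 26 min ran from -0.0076 to 0.0281. The replicate block changed no count of called members (7 at 28 min and 8 at 30 min in both fits). No pairing of the kidneys by replicate number was seen over all genes. Deviations from group means correlated by -0.416 to 0.48 (median -0.009) over 108 pairs with the same number. Over 216 pairs with different numbers they correlated by -0.524 to 0.519 (median -0.01). A pairing in part of the series was not looked for. Over all genes, the DEGs at 30 min split into 934 higher and 1016 lower, and with TPM rescaling into 1333 and 1044. A pseudocount of 0.1 FPKM gave 2626 in place of 1542 DEGs at 28 min and 3276 in place of 1950 at 30 min, and the fit of 2 groups gave 0 in place of 191 for 30 against 28 min. With Spearman correlation, the same 3 genes were nearest to Fga and to Fgg, while 2 of the 3 were shared for Fgb, 1 for Plat, Plau, Plaur and Thbd, and 0 for F3 and Thbs1. The unknown depth limits what can be said of genes near 0 FPKM.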
